A study of Mus musculus with 6 samples.

Results

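The genes described here are 10 members of the interleukin-6 (IL-6) family system in mouse osteoblasts: the cytokines *Il6*, *Il11* and *Lif*, the receptor chains *Il6st*, *Il6ra*, *Il11ra1*, *Lifr* and *Osmr*, the transcription factor *Stat3* and its feedback inhibitor *Socs3*. They were chosen by name, by matching their Ensembl identifiers to symbols, and all 10 were found among the 24016 genes of the table. MC3T3-E1 is a preosteoblast line from mouse calvaria that lays down bone-like matrix when differentiated, and subclone 4 was used. Differentiation lasted 6 days in all cultures, in medium with β-glycerophosphate (10 mM) and ascorbic acid (50 μg/ml). Corticosterone, the chief glucocorticoid hormone in mice, was then given to 3 cultures at 100 nM for 24 h, and 3 others received vehicle. Calcitriol, the active form of vitamin D, is listed at 10 nM for both groups. The 3 libraries of a group are stated to be biological replicates of this 1 wild-type line, and the passages are given as 4 to 10 in one label and 6 to 12 in another. The question was how the glucocorticoid changed the RNA of this cytokine system in a cell that both makes and receives these cytokines.

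Cytokines of this family act through gp130, the receptor chain encoded by *Il6st*. IL-6 and IL-11 first bind a chain of their own, which then recruits gp130, whereas leukaemia inhibitory factor (LIF) and oncostatin M signal through gp130 paired with a second signalling chain. Janus kinases bound to the receptors then activate STAT3, and SOCS3, a STAT3 target, binds gp130 and shuts the signal down. In bone, these cytokines are known for their action on osteoblasts and, through osteoblasts, on osteoclast formation.

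With corticosterone, 4 receptor chains rose (*Il6st*, *Il6ra*, *Il11ra1* and *Osmr*), whereas *Lifr* and *Socs3* fell. The RNA of the 3 cytokines did not pass the test, and neither did *Stat3*. Thus 6 of the 10 genes had an adjusted p under 0.05, by limma with Benjamini-Hochberg adjustment over all genes. This share was 16.7% over the whole table, with 8.49% of genes higher and 8.2% lower. Since well-measured genes pass more often, the closer background is that of genes with a mean of at least 100 normalized counts, of which 32.6% passed, against 6 of the 8 members at that level. No member also had an absolute log2 fold change over 1, which 2.78% of all genes had. By the unadjusted p of limma, 7 members were under 0.05, of which 1, *Il6*, was past that fold, and on the recovered reads 0 members were past both criteria in DESeq2 and in edgeR with its filter on low counts, which removed *Il6*, against 1, *Il6*, in edgeR without that filter. The groups did not overlap for 8 of the 10 members, against 29.6% of all genes. The median log2 fold change was 0.08 over the members and -0.01 over all genes.

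The sequences upstream of 4 of these genes are shown because the results turn on them: *Il6st*, the chain shared by all these receptors, *Il6ra*, with the largest rise that passed the test, *Lifr*, the receptor chain that fell, and *Socs3*, the feedback inhibitor that fell. Each is the 200 bases from 250 to 51 bases before the RefSeq start of the gene, 5′ to 3′ on the strand of the gene, in the mouse build GRCm38. They are *Il6st* on the plus strand (chr13:112463820-112464019), *Il6ra* on the minus strand (chr3:89913247-89913446), the first of 2 RefSeq starts of *Lifr* on the plus strand (chr15:7129322-7129521) and *Socs3* on the minus strand (chr11:117969417-117969616). Capitals mark a match to the STAT motif TTCNNNGAA.
Il6st upstream: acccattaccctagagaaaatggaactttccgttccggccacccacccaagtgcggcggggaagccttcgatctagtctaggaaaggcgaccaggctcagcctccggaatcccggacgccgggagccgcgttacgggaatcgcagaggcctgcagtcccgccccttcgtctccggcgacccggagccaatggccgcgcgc
Il6ra upstream: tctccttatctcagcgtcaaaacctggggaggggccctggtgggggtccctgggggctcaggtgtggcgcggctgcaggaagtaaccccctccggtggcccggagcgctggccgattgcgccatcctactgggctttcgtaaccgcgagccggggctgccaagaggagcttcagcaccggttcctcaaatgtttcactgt
Lifr upstream: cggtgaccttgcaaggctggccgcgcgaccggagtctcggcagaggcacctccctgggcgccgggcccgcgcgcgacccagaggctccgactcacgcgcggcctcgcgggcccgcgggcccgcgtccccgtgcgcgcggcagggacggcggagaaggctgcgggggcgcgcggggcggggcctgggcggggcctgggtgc
Socs3 upstream: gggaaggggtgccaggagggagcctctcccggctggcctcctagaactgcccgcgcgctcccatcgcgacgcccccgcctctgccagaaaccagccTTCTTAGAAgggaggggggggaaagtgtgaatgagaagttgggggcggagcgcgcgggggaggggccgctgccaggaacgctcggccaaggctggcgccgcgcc

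Both strands of the 250 bases before the 13 RefSeq starts of the 10 genes were searched for 5 motifs, and the same was done for all 32851 RefSeq promoters of the mouse. The STAT motif lay in the *Socs3* window, with its first base 154 bases before the start, and in no other member's. It lay in 7.02% of all promoters. The AP-1 motif TGANTCA lay upstream of the 3 cytokine genes, with its first base 249 bases before the start of *Il6*, 98 before one start of *Il11* and 228 before that of *Lif*, and in 6.75% of all promoters. The core of the glucocorticoid response element, ACANNNTGT, and the exact TATA box letters TATAAA were in no member's window, against 5.84% and 12.4% of all promoters. The median GC content was 63.6% in the 13 member windows and 52.4% in all promoters. The shares were not matched for GC content, and nothing is read from an absence in so few windows. Other TATA-like letters, such as the TATATAA in an *Il11* window, were not searched. The full palindromic glucocorticoid response element, which contains that core, was in 3 promoters, none of them a member's. These are matches of letters in short windows, and binding was not measured. The upstream window of *Il6ra* overlaps an exon of the antisense gene *Gm42809*, and that of *Socs3* an exon of a non-coding *Socs3* transcript. The *Lifr* window shown lies inside the annotated span of the gene, since its RefSeq start is 38958 bases from the GENCODE start.

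All libraries could be compared on 1 scale. The values are read counts divided by 1 size factor per library, called normalized counts here, from 16020401 to 25638645 reads per library. Each vehicle library held at least 19076586 reads and each corticosterone library at most 18992332, so that depth moved with treatment, and each of the 6 calls was also made after thinning all libraries to the smallest. A gene with 3 reads has a normalized count of 2.32 to 3.84. The glucocorticoid targets *Fkbp5*, *Tsc22d3*, *Per1* and *Sgk1* all rose, with log2 fold changes of 1.49 to 2.75. All 9 osteoblast markers had at least 3 reads in every library, and 7 of them fell. *Runx2*, *Sp7*, *Ibsp* and *Bglap* fell past the fold threshold, with log2 fold changes of -1.16 to -1.87. *Spp1*, of the same list, rose by 0.23 (adjusted p = 0.00061 by limma), and *Dmp1* did not pass (0.05, adjusted p = 0.661). The summed marker levels with vehicle and with corticosterone were 1357900 to 1404030 and 1182810 to 1238350 for the 9 osteoblast markers, 1792 to 1962 and 1415 to 1478 for 4 osteoclast markers, 340 to 388 and 295 to 340 for 4 macrophage markers, 302 to 403 and 320 to 322 for 3 adipocyte markers, 3543 to 3956 and 2985 to 3017 for 3 chondrocyte markers, and 0 to 10.5 and 1.07 to 12.8 for 2 endothelial markers. The osteoblast sum was mostly *Col1a1* and *Col1a2*, which fell by 0.15 and 0.35 on the log2 scale. The adipocyte sum joins *Fabp4*, which rose from 14.8 ± 6.71 to 121 ± 11.5 (SD, n = 3; log2 fold change 3.14, adjusted p = 1.3e-06 by limma), and *Cebpa*, which fell from 326 to 199 (-0.69, adjusted p = 0.00036). In the chondrocyte sum, *Col2a1* (log2 fold change -0.80, adjusted p = 3.5e-06 by limma) and *Sox9* (-0.16, adjusted p = 0.0362) fell. *Col10a1*, of the same list, rose (0.73, adjusted p = 0.0073 by limma). The osteoclast sum was nearly all *Ctsk*, and the defining markers *Acp5* and *Calcr* had 0 to 6 reads. In bulk RNA, fewer cells of a type and less RNA per cell cannot be told apart, and the part of other cells in the results below was not tested.

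Among the cytokines, *Il6* (ENSMUSG00000025746, chromosome 5, 30013114 to 30019981, plus strand), which encodes IL-6 itself, was close to the floor of detection. Its normalized counts were 4.05, 9.26 and 16.5 with vehicle and 1.07, 3.31 and 2.56 with corticosterone, from 5, 12 and 16 reads against 1, 3 and 2. Every corticosterone library lay below every vehicle library, yet the vehicle values themselves spread widely, with a mean of 9.96 ± 6.28 (SD, n = 3). Corticosterone against vehicle, the log2 fold change was -1.98 (SE 0.79, 95% interval -3.66 to -0.29), which did not pass limma's test (adjusted p = 0.113). Over the summed reads, 6 against 33, the ratio of normalized counts was 0.242, with an exact interval of 0.0831 to 0.586 that covers counting error only. In edgeR without a filter on low counts, *Il6* passed with a log2 fold change of -2.03 (adjusted p = 0.0283).

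*Il11* (ENSMUSG00000004371, chromosome 7, 4772373 to 4782859, minus strand) encodes IL-11, a cytokine made by bone marrow stromal cells and osteoblasts. It had 8.92, 11.6 and 9.31 normalized counts with vehicle and 6.42, 3.31 and 10.2 with corticosterone. The groups overlapped, since the highest corticosterone library lay above 2 of the vehicle libraries. The log2 fold change was -0.70 (SE 0.58, 95% interval -1.94 to 0.54, adjusted p = 0.518 by limma), so at 3 to 15 reads per library the interval holds both a large fall and no change.

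*Lif* (ENSMUSG00000034394, chromosome 11, 4257557 to 4272514, plus strand) was the cytokine of the 3 with the most RNA. It had 194.6, 194.5 and 170.7 normalized counts with vehicle and 203.4, 220.9 and 203.4 with corticosterone. All corticosterone libraries lay above all vehicle libraries, but by little. The log2 fold change of 0.17 (SE 0.10, 95% interval -0.05 to 0.38) did not pass the test (adjusted p = 0.340 by limma), and the interval leaves room for a rise of at most 0.38.

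**Figure D1:**
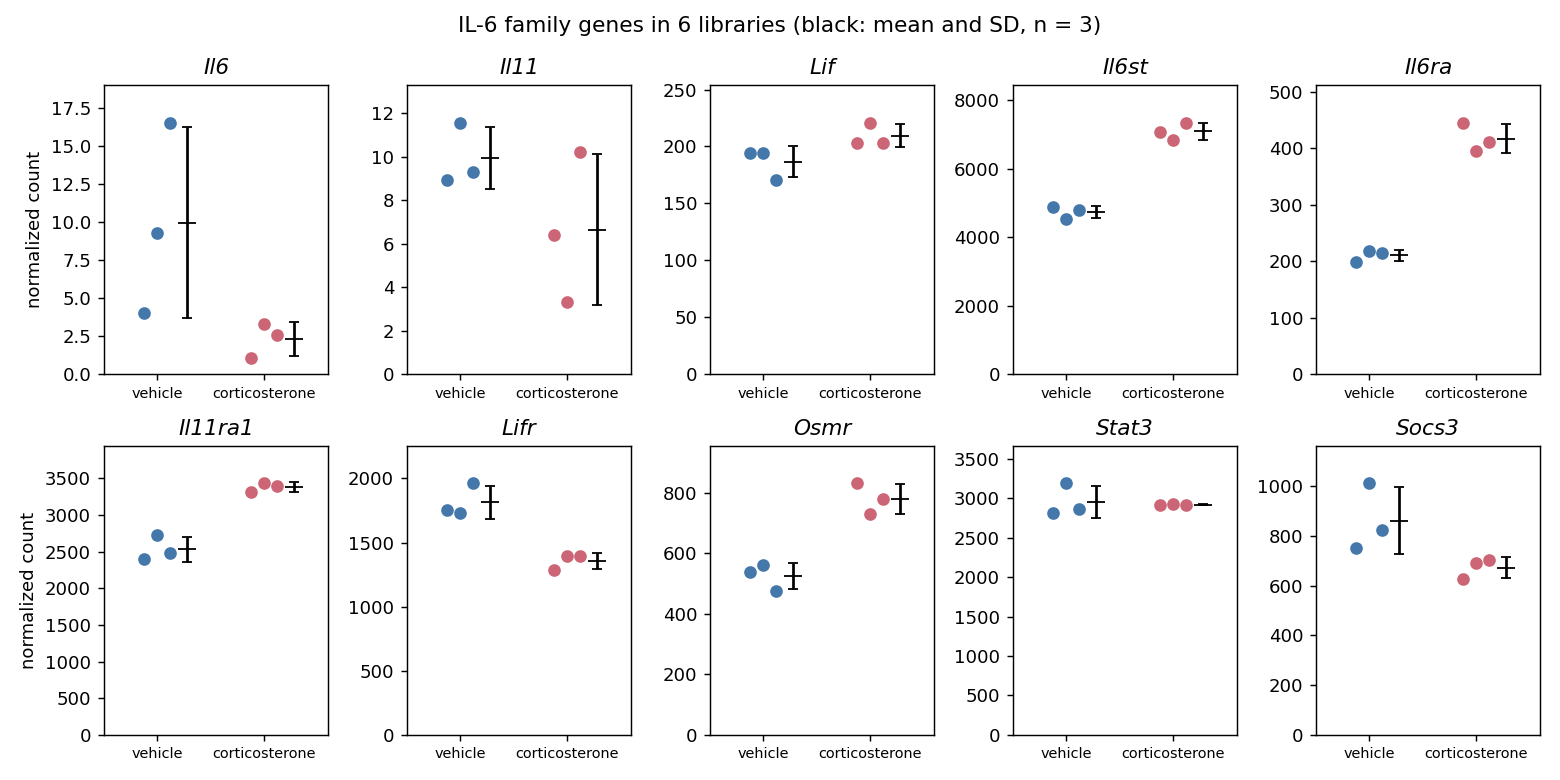
Normalized counts (vertical axes from 0, one scale per gene) of the 10 genes in the 3 vehicle (blue) and 3 corticosterone (red) libraries, with the mean and SD in black. The groups are apart for *Il6st*, *Il6ra*, *Il11ra1*, *Lifr*, *Osmr* and *Socs3*, and they overlap for *Il11* and *Stat3*. They are also apart for *Il6* and *Lif*, which did not pass the test.

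Of the receptor chains, *Il6st* (ENSMUSG00000021756, chromosome 13, 112464070 to 112510086, plus strand), which encodes gp130, rose in every library. It had 4882, 4531 and 4787 normalized counts with vehicle and 7086, 6849 and 7348 with corticosterone. The gap between the groups was far wider than the spread within them (4733 ± 182 against 7094 ± 250, SD, n = 3). This was a log2 fold change of 0.58 (SE 0.04, 95% interval 0.49 to 0.68, adjusted p = 4.3e-08 by limma), a rise of 49.9% in the mean. Its upstream sequence, shown above, held none of the 5 motifs.

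*Il6ra* (ENSMUSG00000027947, chromosome 3, 89864059 to 89913196, minus strand), the chain that binds IL-6, had the largest rise. It had 199, 218 and 214 normalized counts with vehicle and 445, 394 and 412 with corticosterone, that is 210 ± 10.1 against 417 ± 26.0 (SD, n = 3). The lowest corticosterone library was well above the highest vehicle library. The log2 fold change of 0.99 (SE 0.08, 95% interval 0.81 to 1.17, adjusted p = 2.8e-07 by limma) lay just under the fold threshold of 1. Without vehicle replicate 2, vehicle replicate 3 or corticosterone replicate 2, it was over 1, with a highest value of 1.03, while the adjusted p stayed under 0.05 in all 6 fits that left out a library. The exons of *Il6ra* overlap those of the antisense gene *Gm42809* over 2.8% of their length, and strand-specific counting is not stated.

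*Il11ra1* (ENSMUSG00000073889, chromosome 4, 41699989 to 41769474, plus strand), the chain that binds IL-11, also rose. It had 2395, 2726 and 2477 normalized counts with vehicle and 3313, 3432 and 3403 with corticosterone, with no overlap. It rose by a log2 fold change of 0.42 (SE 0.05, 95% interval 0.31 to 0.53, adjusted p = 1.1e-05 by limma). The level is uncertain, and so is how much of the rise belongs to *Il11ra1*. Of the 31-base words of its transcripts, 57.7% also occur in the near-identical copy *Gm13305* and 19.3% in *Il11ra2*. How reads shared by these copies were counted is not stated. *Il11ra2* itself had 3 to 11 reads per library, and *Gm13305* was not analysed here.

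The other signalling chains moved in opposite directions. *Osmr* (ENSMUSG00000022146, chromosome 15, 6813577 to 6874969, minus strand), which pairs with gp130 in the receptor for oncostatin M, had 539, 561 and 477 normalized counts with vehicle and 831, 730 and 778 with corticosterone. It rose by a log2 fold change of 0.57 (SE 0.07, 95% interval 0.41 to 0.73, adjusted p = 2.7e-05 by limma), and the groups did not overlap.

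*Lifr* (ENSMUSG00000054263, chromosome 15, 7090614 to 7197489, plus strand) lies on the same chromosome and pairs with gp130 in the receptor for LIF. It had 1754, 1727 and 1961 normalized counts with vehicle and 1288, 1392 and 1397 with corticosterone. All corticosterone libraries lay below all vehicle libraries, and the mean fell by 25.1%. On the log2 scale the change was -0.42 (SE 0.06, 95% interval -0.54 to -0.29, adjusted p = 5.5e-05 by limma). The intervals of *Lifr* and *Osmr* lie on opposite sides of 0, and every fit that left out 1 library kept both calls. Without a variance trend, *Lifr* did not pass (adjusted p = 0.0577).

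**Figure D2:**
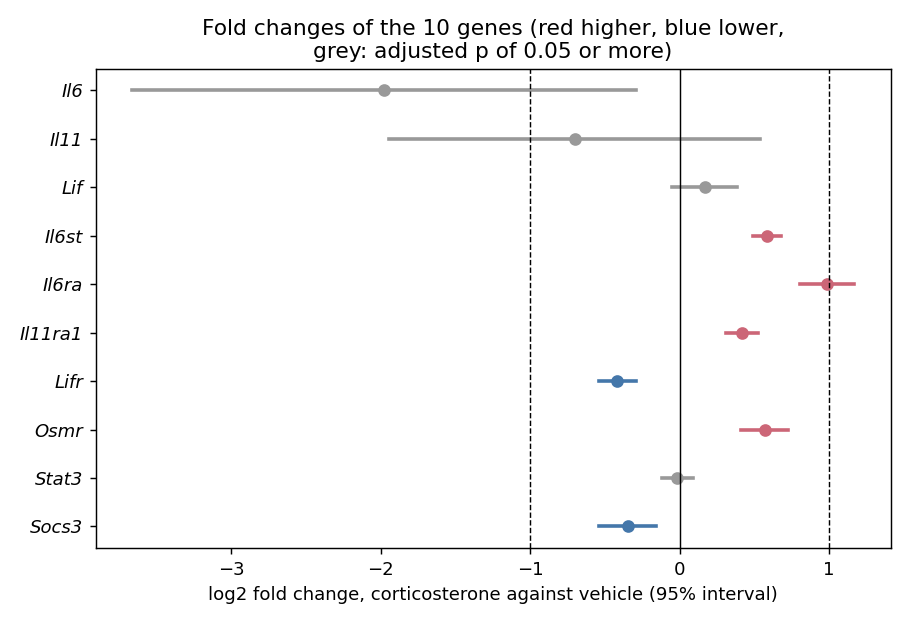
Log2 fold change of each of the 10 genes with corticosterone against vehicle (horizontal axis), with the 95% interval from limma as a line and dashed lines at -1 and 1. *Il6st*, *Il6ra*, *Il11ra1* and *Osmr* lie above 0, *Lifr* and *Socs3* below, and the widest intervals are those of *Il6* and *Il11*, the genes with the fewest reads.

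*Stat3* (ENSMUSG00000004040, chromosome 11, 100885098 to 100939540, minus strand), the transcription factor these receptors activate, had 2811, 3191 and 2865 normalized counts with vehicle and 2912, 2932 and 2922 with corticosterone. The corticosterone values lay inside the range of the vehicle values. The log2 fold change was -0.01 (SE 0.05, adjusted p = 0.916 by limma), and its 95% interval of -0.12 to 0.09 limits a change of *Stat3* RNA in either direction. Activation of STAT3 occurs by phosphorylation, which RNA does not show.

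*Socs3* (ENSMUSG00000053113, chromosome 11, 117966079 to 117970047, minus strand), the feedback inhibitor of gp130 and the gene with the STAT motif in its upstream window, had 750, 1012 and 823 normalized counts with vehicle and 625, 691 and 704 with corticosterone. The groups did not overlap, but the highest corticosterone library was close to the lowest vehicle library, and vehicle replicate 2 stood above the rest. On the log2 scale the change was -0.35 (SE 0.09, 95% interval -0.54 to -0.16, adjusted p = 0.0119 by limma). With 1 library removed at a time, the call was lost in 5 of 6 fits. Leaving out vehicle replicate 2 gave -0.22 (adjusted p = 0.0674), vehicle replicate 3 gave -0.37 (adjusted p = 0.114), corticosterone replicate 1 gave -0.29 (adjusted p = 0.107), corticosterone replicate 2 gave -0.37 (adjusted p = 0.0560) and corticosterone replicate 3 gave -0.38 (adjusted p = 0.0855). Only without vehicle replicate 1 did it pass, at -0.44 (adjusted p = 0.0092). It also did not pass without a variance trend (adjusted p = 0.260).

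To compare levels between genes, normalized counts were divided by the length of all annotated exons of a gene in kb. With vehicle the order of mean levels per kb was *Il11ra1* (566), *Il6st* (426), *Stat3* (310), *Socs3* (298), *Lifr* (168), *Osmr* (43.4), *Lif* (42.9), *Il6ra* (24.3), *Il11* (4.77) and *Il6* (4.10). Neighbours in this order whose library values overlapped were *Stat3* and *Socs3*, *Osmr* and *Lif*, and *Il11* and *Il6*. The level of *Il11ra1* carries the uncertainty of its copies. With corticosterone the levels per kb were 757 for *Il11ra1*, 639 for *Il6st*, 307 for *Stat3*, 233 for *Socs3*, 126 for *Lifr*, 64.4 for *Osmr*, 48.3 for *Il6ra*, 48.1 for *Lif*, 3.20 for *Il11* and 0.953 for *Il6*. Now only *Il6ra* and *Lif* overlapped as neighbours, and *Il6ra*, which was below *Lif* with vehicle, had come level with it. With the length of the longest transcript, *Osmr* (142) and *Lifr* (141) changed places with corticosterone, though their values overlapped. At this length *Il6ra* (48.3) stayed below *Lif* (52.0) in the mean with corticosterone. With vehicle, *Osmr* (95.7) and *Lif* (46.3) no longer overlapped, nor did *Stat3* (489) and *Socs3* (338).

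The chains that pair with gp130 were also compared with each other, as shares of their summed normalized counts per kb. The share of *Lifr* was 21.3%, 19.0% and 22.7% with vehicle and 12.2%, 12.9% and 12.9% with corticosterone. The share of *Il6ra* was 3.00%, 2.99% and 3.10% with vehicle and 5.26%, 4.55% and 4.75% with corticosterone. Both were apart between the groups, in opposite directions. *Il11ra1* made up most of the sum, so the sum and every share carry the uncertainty of its copies. The mean sum rose from 803 with vehicle to 995 with corticosterone, so the share of *Lifr* fell by more than its RNA did. With the length of the longest transcript, the difference for *Il6ra* was 1.06 percentage points in place of 1.82, from 1.90% to 2.97%, and that for *Lifr* -6.08 in place of -8.35. The share of *Il11ra1*, with the uncertainty of its copies, was 70.5% ± 1.69 and 76.0% ± 0.505, and that of *Osmr* 5.41% ± 0.454 and 6.47% ± 0.495 (SD, n = 3). For each of the 4 chains the two-sided exact permutation test gave p = 0.1, and 0.1 after Benjamini-Hochberg adjustment over the 4, which is the smallest p that 3 against 3 libraries allow, so no share could pass 0.05. The sum of the 4 chains per unit of *Il6st*, both per kb, was 1.89 ± 0.162 with vehicle and 1.56 ± 0.0585 with corticosterone (exact permutation p = 0.1), since *Il6st* rose by more than the sum did.

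**Figure D3:**
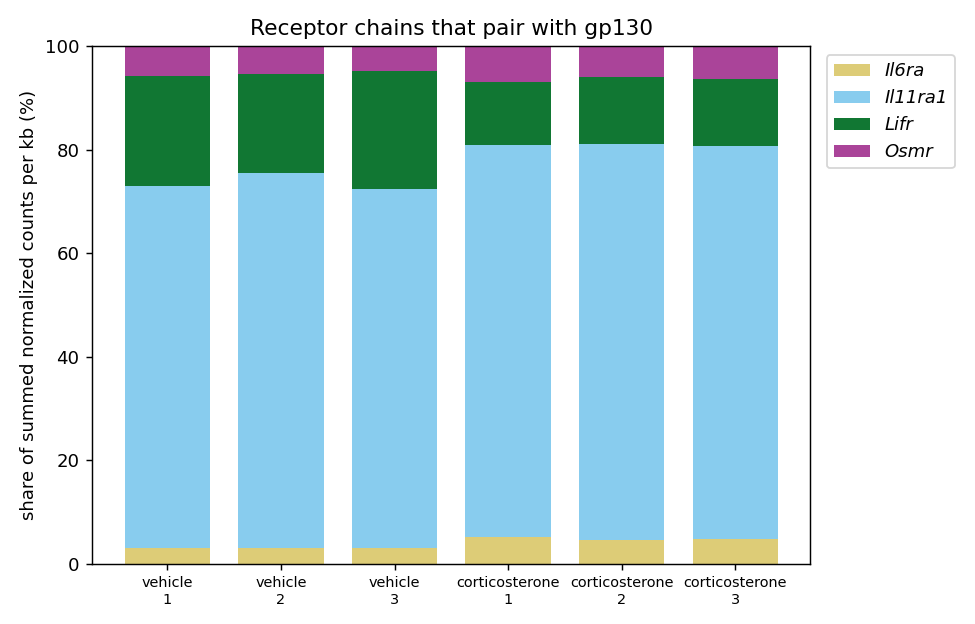
Share of *Il6ra*, *Il11ra1*, *Lifr* and *Osmr* in their summed normalized counts per kb of exon (vertical axis, percent, 0 to 100) in each library. The *Lifr* band is narrower in the 3 corticosterone libraries (12.2% to 12.9%) than in the 3 vehicle libraries (19.0% to 22.7%), and the *Il6ra* band is wider.

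Other genes of the pathway were read from 6 lists, which held 56 genes of the table. Of these, 14 rose and 7 fell, while 35 did not pass, and the median log2 fold change was -0.03. The genes that passed were thus 37.5% of the lists, against 16.7% of all genes, and 21 of the 44 list genes with a mean of at least 100, against 32.6% of all genes at that level. Nothing particular to the pathway is read from these shares. The split into rises and falls moved with the scaling: 11 rose and 13 fell with upper-quartile scaling, 14 and 11 with quantile normalization, and 14 and 12 with scaling to the same total. *Osm*, *Il27*, *Ebi3*, *Il31*, *Il31ra* and *Saa3* were listed but not analysed here.

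Among the other ligands, *Clcf1* rose. This gene, which encodes cardiotrophin-like cytokine factor, had 1280, 1165 and 1224 normalized counts with vehicle and 1846, 1888 and 1923 with corticosterone (log2 fold change 0.63, SE 0.05, adjusted p = 1.4e-07 by limma). All its corticosterone values lay above all its vehicle values. *Ctf1*, which encodes cardiotrophin-1, had a log2 fold change of -0.27 and an adjusted p of 0.355 by limma, and *Cntf* and *Ctf2* had at most 8 reads. Of the other receptors, *Cntfr*, *Il27ra* and *Il11ra2*, 0 of 3 passed in limma, edgeR or DESeq2, and 0 had an unadjusted p under 0.05. *Cntfr*, the chain for CLCF1 and ciliary neurotrophic factor, had 26.9 to 36.3 normalized counts with vehicle and 17.7 to 26.8 with corticosterone.

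Among the kinases, STATs and adaptors, 3 of 11 rose and 3 fell, all 11 with a mean of at least 100, where 32.6% of all genes passed. *Stat5a* rose by a log2 fold change of 0.84 (SE 0.06, adjusted p = 2.8e-08 by limma) and *Stat5b* by 0.53 (SE 0.06, adjusted p = 3.7e-06). Both encode STAT proteins better known from growth hormone and prolactin signalling than from gp130. The third to rise was *Jak2*, which encodes a Janus kinase (0.22, adjusted p = 0.0115). The adaptor *Grb2* fell by 0.23 (adjusted p = 0.0020 by limma), *Jak1*, the main kinase of gp130, by 0.18 (adjusted p = 0.0187) and the exchange factor *Sos1* by 0.17 (adjusted p = 0.0430). Of these small changes only that of *Grb2* passed in all 6 fits that left out 1 library, whereas *Jak2* passed in 3, *Jak1* in 1 and *Sos1* in 1. *Jak1* passed only without vehicle replicate 1 and was between -0.13 and -0.19 in the other 5 fits (adjusted p 0.0631 to 0.142). *Sos1* passed only without vehicle replicate 2 and was otherwise between -0.13 and -0.19 (adjusted p 0.0679 to 0.191), and *Jak2* did not pass without vehicle replicate 3, corticosterone replicate 1 or corticosterone replicate 3 (0.19 to 0.20, adjusted p 0.0765 to 0.0978). *Sos1* also did not pass in DESeq2 (adjusted p = 0.0551, and 0.158 with the replicate block), nor *Jak2* with upper-quartile scaling (adjusted p = 0.128). *Stat5a* and *Stat3* lie side by side on opposite strands and their exons overlap over 0.76% of the length of *Stat3*.

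Of 14 inhibitors, *Ptpn1*, a tyrosine phosphatase that acts on Janus kinases, rose (log2 fold change 0.21, adjusted p = 0.0068 by limma), and 3 fell. These are 4 of the 12 inhibitors with a mean of at least 100, a share near the 32.6% of all genes at that level, so the count is no result about inhibitors. *Socs5*, a relative of *Socs3*, had 2223, 2414 and 2035 normalized counts with vehicle and 1688, 1754 and 1741 with corticosterone, with no overlap (log2 fold change -0.36, SE 0.06, adjusted p = 0.00021 by limma). *Socs1*, which inhibits Janus kinases directly, had a log2 fold change of -0.42 (adjusted p = 0.0221 by limma), and *Pias3*, an inhibitor of STAT3, of -0.25 (adjusted p = 0.0109). When each library was left out in turn, *Socs5* passed in 6 of 6 fits, *Ptpn1* in 4, *Pias3* in 2 and *Socs1* in 1, the fit without corticosterone replicate 2. In the fits in which they did not pass, *Socs1* was between -0.33 and -0.46 (adjusted p 0.0569 to 0.131), *Pias3*, without vehicle replicate 2 or 3 or corticosterone replicate 1 or 3, between -0.21 and -0.25 (adjusted p from 0.0516 upwards), and *Ptpn1*, without vehicle replicate 3 or corticosterone replicate 3, 0.20 and 0.16 (adjusted p = 0.0744 and 0.0501). *Socs1* also did not pass in DESeq2 (adjusted p = 0.0556, and 0.168 with the replicate block), nor *Ptpn1* with upper-quartile scaling (adjusted p = 0.103) or *Pias3* after thinning to the smallest library (adjusted p = 0.0506). *Socs2*, *Socs4*, *Socs6*, *Socs7* and *Cish* did not pass.

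Of 19 known STAT3 target genes, a list drawn from general knowledge and not from osteoblasts, 7 rose and 1 fell. All 8 were among the 16 with a mean of at least 100, where the share of all genes was 32.6%, and nothing is read from the count. *Hp*, which encodes the acute-phase protein haptoglobin, was the only one past the fold threshold. It had 79.5, 75.6 and 61.0 normalized counts with vehicle and 1333, 1480 and 1191 with corticosterone (log2 fold change 4.21, SE 0.11, adjusted p = 1.3e-13 by limma). The others were *Bcl2l1*, which encodes the survival protein BCL-XL (0.83), *Vegfa*, the vascular growth factor (0.65), the transcription factors *Cebpb* (0.50), *Myc* (0.50) and *Hif1a* (0.23), and the interleukin-4 receptor chain *Il4ra* (0.26), all log2 fold changes with an adjusted p of at most 0.0023. *Timp1*, a metalloproteinase inhibitor, fell by 0.25 (adjusted p = 0.0046 by limma), which did not pass without corticosterone replicate 3 (-0.22, adjusted p = 0.0780). *Hif1a* did not pass with upper-quartile scaling (adjusted p = 0.0524). *Bcl3*, *Bcl6*, *Pim1*, *Junb*, *Fos* and *Mcl1* did not pass, and the median of the list was -0.02. Several of these genes are also regulated by other factors, the glucocorticoid receptor among them, so the list does not measure STAT3 activity.

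Soluble forms of some of these receptors, the IL-6 receptor among them, can arise when proteases cut them from the cell surface. Of 4 genes of receptor shedding, *Adam17*, which encodes the main protease that cuts the IL-6 receptor, rose from 1460, 1333 and 1482 normalized counts with vehicle to 2060, 2019 and 1960 with corticosterone (log2 fold change 0.50, SE 0.05, adjusted p = 2.5e-06 by limma). *Adam10*, a related protease, had a log2 fold change of -0.07 (95% interval -0.16 to 0.03). *Rhbdf1* and *Rhbdf2*, which encode partners that help ADAM17 reach the surface, had log2 fold changes of -0.15 and 0.11, with adjusted p = 0.0730 and 0.850. Thus the gene of the receptor and that of the protease both rose, while protein and shedding were not measured.

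**Figure D4:**
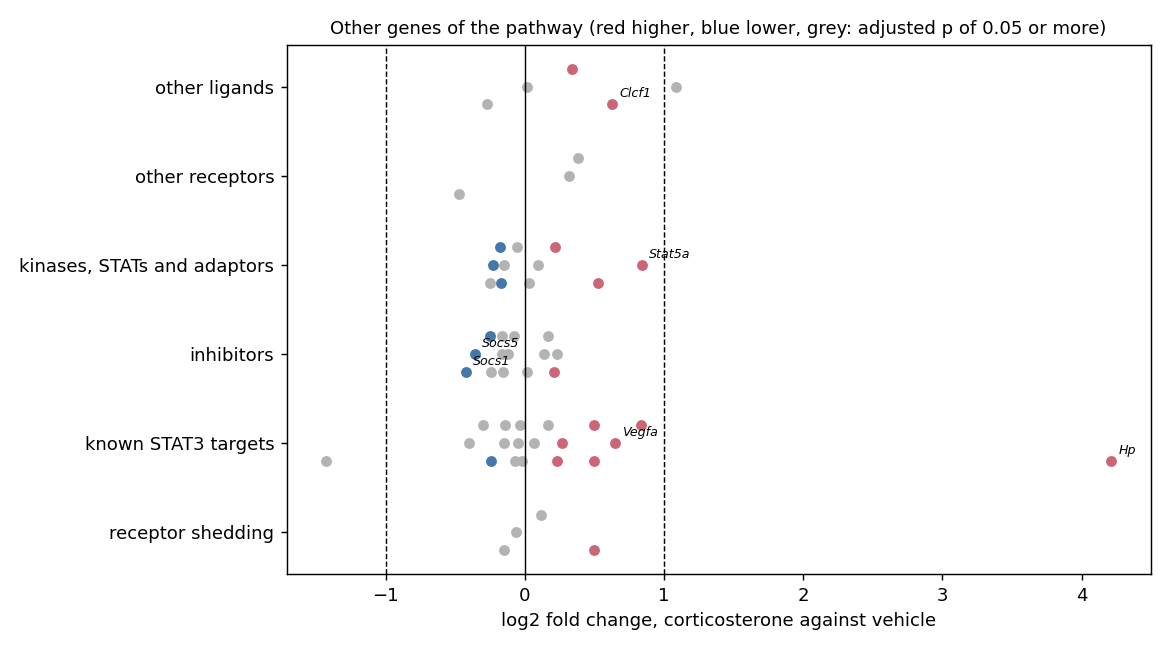
Log2 fold change with corticosterone (horizontal axis) of the 56 other pathway genes in 6 lists (rows), each point 1 gene, red or blue where the adjusted p was under 0.05, with dashed lines at -1 and 1. Most points lie within 1 of 0, and *Hp*, at 4.21, is the only coloured point beyond the dashed lines.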

How the data were processed

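RNA of 3 vehicle-treated and 3 corticosterone-treated MC3T3-E1 cultures was sequenced from libraries made with an NEBNext Ultra kit. The authors deposited 1 table, headed FPKM, of a signal for each gene in each library. Within a library all values are multiples of the same step, whatever the gene length, so the deposited signal is a read count divided by a size factor. Whole reads were recovered for 100% of values (tolerance 0.05). The aligner, counting program and strand setting are not given in the sources used here, and the submitters' processing notes name the build mm10. Symbols and exons came from GENCODE M21 (GRCm38), which matched 23983 identifiers and left 33, and upstream sequences from RefSeq (GRCm38.p6).

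The 10 members, the lists and the tests were chosen with earlier results of these data known. The genes named are the members, list genes, glucocorticoid targets, and, taking only members averaging at least 100, the 3 genes nearest to the member that rose most and to the one that fell most. limma 3.58.1 (lmFit, eBayes with a variance trend, R 4.3.3) was run on log2(value + 0.1), and a minimum mean of 0.1 kept all 24016 genes, with Benjamini-Hochberg adjustment. The threshold was an adjusted p under 0.05, with or without an absolute log2 fold change over 1. Fold changes are on the log2(value + 0.1) scale, which can understate or overstate those of low genes. Where a library had 0 reads, the sign can even differ from that of the means. *Cntf* had a log2 fold change of 1.09, while its mean was 2.51 with vehicle and 1.93 with corticosterone. Shares were tested by exact permutation, two-sided. The fits were checked on simulated counts. Alternatives were pseudocounts of 1 and 0.01, no filter, a mean of at least 1 or 10, a replicate block, a robust prior variance, a prior without variance trend, 3 other scalings, thinning, edgeR 4.0.16 and DESeq2 1.42.0 on the recovered reads, the longest transcript as length, and leaving out each library. Their use for the other pathway genes was chosen after seeing the data. No library pair of a group was a copy of another, with a chi-square per degree of freedom of at least 3.38. limma's p-values join the spread of a gene between these cultures with a variance estimated from all genes. That variance was worth 11.6 degrees of freedom with the variance trend and 0.748 without it. No p-value reaches beyond these cultures of 1 line. The single-gene result of 1 listed gene is not reported here, while the fits and list counts include it.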

Additional observations from a re-analysis of the deposited data

How the results depend on the processing

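*Il6st*, *Il6ra*, *Il11ra1* and *Osmr* passed, and *Lif*, *Il11* and *Stat3* did not, under every alternative that gave a value. Without a variance trend, *Lifr* (-0.42, adjusted p = 0.0577) and *Socs3* (-0.35, adjusted p = 0.260) did not pass, so that 0 members and 0 other pathway genes fell and 9 pathway genes rose. In edgeR without a filter, *Il6* passed (-2.03), which put 1 member past both thresholds. Leaving out 1 library at a time gave -0.44 to -0.22 for *Socs3*, which passed in 1 of 6 fits, -0.049 to 0.042 for *Stat3*, whose sign turned without vehicle replicate 2, 1 to 2 members that fell, 0 to 1 past both thresholds and 2 to 6 other pathway genes that fell, against 7, with 4 without vehicle replicate 2, 3 without corticosterone replicate 1, 3 without vehicle replicate 3 and 2 without corticosterone replicate 3. The other pathway genes that fell numbered 13 with upper-quartile scaling, 11 with quantile normalization, 12 with scaling to the same total and 11 in edgeR without a filter. Without a variance trend, *Grb2*, *Socs5*, *Jak1*, *Jak2*, *Sos1*, *Socs1*, *Pias3*, *Ptpn1*, *Timp1*, *Hif1a* and *Il4ra* also did not pass (adjusted p 0.0751 to 0.279). With the longest transcript as length, the difference in share was 1.06 percentage points for *Il6ra* and -6.08 for *Lifr*, against 1.82 and -8.35. Causes of these changes were not tested. Each fit that leaves out a library also holds fewer libraries, and this was not separated from which library was left out.

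The labels do not say that replicate numbers pair the cultures. To look for pairing, the group mean of each of 13880 genes was subtracted from its log2 values. The deviations left in same-numbered libraries had correlations of -0.0438, 0.00136 and 0.0234. The replicate block changed no member's call, with *Socs3* at -0.35 (adjusted p = 0.0046), and 14 and 7 pathway genes rose and fell under it. *Il6* and *Il11* gave no value at a mean of at least 10 or in edgeR with its filter. Depth limits these 2 genes, with 1 to 16 reads per library.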

Other observations

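The genes whose pattern over the 6 libraries was nearest to that of *Il6ra* were found by the root mean square distance of log2 values, centred on the vehicle mean, among 10557 genes with a mean of at least 100. They were *Cgnl1*, which encodes a junction protein (distance 0.0609, log2 fold change 1.00), *Nuak1*, which encodes a kinase (0.0627 and 0.99), and *Abhd14a* (0.0632 and 0.93). For *Lifr* the nearest were *Ppp1r10*, which encodes a regulator of a protein phosphatase (distance 0.0162, log2 fold change -0.40), *Tcf4*, which encodes a transcription factor (0.0432 and -0.41), and *Tsku*, which encodes a secreted leucine-rich protein (0.0463 and -0.37). These genes were chosen for their likeness in the same libraries, so the values are descriptions with no test.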
